A study of Mus musculus with 2 samples.

Results

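The 10 genes described here encode calprotectin and the proteins that neutrophils store in their granules. They were taken by symbol, as 10 of the 32285 genes in the count matrices: S100a8 and S100a9, Mpo and Prtn3, Ngp, Camp, Ltf, Lcn2, and Mmp8 and Mmp9. All 10 were found in both libraries, and each matched a single gene identifier.

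The series holds 2 single-cell RNA libraries of mouse colon immune cells, each made with the droplet kit that counts the 3′ ends of transcripts by unique molecular identifiers (UMIs). The study compared RUNX3 fl/fl-Lyz2-Cre mice, in which Cre made from the Lyz2 gene removes the transcription factor RUNX3 in myeloid cells, with RUNX3 fl/fl littermates, so that both groups carry the floxed allele. Per the study, young adult male mice were pooled, and no treatment of the mice is named for these libraries. The labels describe gut lamina propria cells marked cd11b+, separated on a Percoll gradient, stained for sorting and cleared of dead cells. The libraries are titled Runx3_fl and Runx3, neither title states Cre, and they are named here by those titles. With 1 library per group there is no replicate check, no test was possible, and the intervals given are 95% intervals that cover counting error only.

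As background, neutrophils make their granules one kind after another while they mature in the bone marrow. Azurophil granules come first, at the promyelocyte stage, and carry myeloperoxidase (Mpo) and the serine proteases proteinase 3 (Prtn3), neutrophil elastase (Elane) and cathepsin G (Ctsg). Specific granules follow in myelocytes and metamyelocytes and carry lactoferrin (Ltf), the cathelicidin precursor (Camp), neutrophilic granule protein (Ngp) and the siderophore-binding lipocalin 2 (Lcn2). Gelatinase granules are made last and carry the collagenase MMP8 in part and the gelatinase MMP9. S100A8 and S100A9 form calprotectin, a metal-binding complex that is abundant in the cytosol of neutrophils and in part of the monocytes and is measured in stool as a sign of gut inflammation. The granule transcripts fall away once a cell is mature, while the proteins remain.

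The genes lie at several loci (GENCODE vM21, GRCm38). S100a8 (chr3:90668978-90670035, plus strand) and S100a9 (chr3:90692632-90695721, minus strand) are neighbours. Camp (chr9:109847379-109849617, minus strand), Ngp (chr9:110419747-110423012, plus strand) and Ltf (chr9:111019271-111042767, plus strand) lie in one region of chromosome 9, and Mmp8 lies far from them on it (chr9:7558456-7568485, plus strand). The others are Mpo (chr11:87793581-87804413, plus strand), Prtn3 (chr10:79874476-79883174, plus strand), Lcn2 (chr2:32384633-32388252, minus strand) and Mmp9 (chr2:164940780-164955850, plus strand). All 10 are protein coding. Prtn3 overlaps Plppr3 and Mpo overlaps the antisense gene Gm11505, in both cases on the opposite strand.

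Promoters are shown for the calprotectin pair, for Ngp and Camp, whose transcripts were found in the same cells, and for Mpo, which was found in an earlier kind of cell. Each is the 250 bases before the RefSeq start site on GRCm38.p6, written 5′ to 3′ on the strand of the gene. Capitals mark matches, on either strand, to TTGCNNAA, a form of the C/EBP motif, to GAGGAA, a core bound by PU.1, and to TGTGGT, the core bound by RUNX proteins. No matches overlapped.
S100a8: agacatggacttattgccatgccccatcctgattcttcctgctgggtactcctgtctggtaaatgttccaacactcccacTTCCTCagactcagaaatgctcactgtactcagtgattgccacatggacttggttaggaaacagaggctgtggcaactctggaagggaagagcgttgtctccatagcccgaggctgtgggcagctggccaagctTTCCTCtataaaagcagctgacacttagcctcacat
S100a9: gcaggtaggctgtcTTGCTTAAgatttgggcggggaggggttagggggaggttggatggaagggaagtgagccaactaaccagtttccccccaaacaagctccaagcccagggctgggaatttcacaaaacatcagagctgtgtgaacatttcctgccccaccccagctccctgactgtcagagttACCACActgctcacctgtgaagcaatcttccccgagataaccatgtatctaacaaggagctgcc
Ngp: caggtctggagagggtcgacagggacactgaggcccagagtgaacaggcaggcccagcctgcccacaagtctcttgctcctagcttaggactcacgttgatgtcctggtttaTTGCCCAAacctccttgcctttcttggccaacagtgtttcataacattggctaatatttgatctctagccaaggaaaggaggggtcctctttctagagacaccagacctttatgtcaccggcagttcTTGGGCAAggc
Camp: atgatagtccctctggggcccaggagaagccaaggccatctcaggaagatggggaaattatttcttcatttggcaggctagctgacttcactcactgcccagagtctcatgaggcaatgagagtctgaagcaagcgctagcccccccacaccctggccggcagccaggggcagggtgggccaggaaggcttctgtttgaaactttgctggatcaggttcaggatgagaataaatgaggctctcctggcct
Mpo: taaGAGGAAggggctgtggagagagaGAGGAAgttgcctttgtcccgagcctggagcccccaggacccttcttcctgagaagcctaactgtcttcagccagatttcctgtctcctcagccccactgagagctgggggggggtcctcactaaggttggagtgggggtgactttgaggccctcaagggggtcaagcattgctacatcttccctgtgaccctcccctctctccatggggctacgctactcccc
The windows are chr3:90668821-90669070 (plus) for S100a8, chr3:90695722-90695971 (minus) for S100a9, chr9:110419558-110419807 (plus) for Ngp, chr9:109849457-109849706 (minus) for Camp and chr11:87793534-87793783 (plus) for Mpo. Promoters of 9 of the 10 genes were found, the exception being Mmp9. TTGCNNAA was matched in those of S100a9, Ngp, Ltf, Lcn2 and Mmp8, with 2 matches in Ngp, and by 9.56% of 32851 mouse promoters of that length. GAGGAA was matched in those of S100a8, Mpo, Prtn3, Ltf, Lcn2 and Mmp8, and by 23.3% of all promoters. TGTGGT was matched in the S100a9 promoter, and by 14.0% of all promoters. The Camp promoter held none of the 3 motifs. These matches describe letters in the window and show no binding.

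After cells with 200 to 6000 genes and at most 15% mitochondrial UMIs were kept, 11885 Runx3_fl cells and 8167 Runx3 cells remained, with a median of 9573 and 5731 UMIs. The 2 libraries shared 37 cell barcodes. Xist, which is transcribed from the inactive X chromosome of females, had 28866 UMIs in the Runx3_fl library and 12 in the Runx3 library, although the study describes males. The libraries thus also differed in Xist, and every difference below is between these 2 libraries, in which sex and genotype cannot be told apart. They differed in red cell transcripts too. In cells outside all classes described below, Hba-a1 had 2 UMIs in the Runx3_fl library and 1854 in the Runx3 library. Hbb-bs had 5 and 3183 UMIs in these cells. How far this difference bears on those below was not tested. Runx3 itself was at 141.9 CPM (a gene's UMIs per 1000000 UMIs of the class) in macrophage-gated cells of the Runx3_fl library and 232.5 CPM in those of the Runx3 library. These tags come from the 3′ end, the deleted part of the gene was not given in the sources used here, and so they check no label. T-, NK- and B-gated cells were present in both libraries despite the cd11b+ label, in unlike shares. T-gated cells were 23.8% of the Runx3_fl library and 5.42% of the Runx3 library. In the same order, NK-gated cells were 21.3% and 2.52%, and B-gated cells 2.94% and 17.2%.

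Cells were gated by marker UMIs, none of them from the 10 genes. Mature neutrophils had UMIs of Cxcr2 and Csf3r, macrophages of Csf1r and C1qa, T cells of Cd3e and B cells of Cd79a. NK cells had UMIs of Ncr1 or Klrb1c and dendritic cells of Flt3, while monocytes had Ly6c2 and no other gate. Ly6c2 was not limited to monocytes, so that this gate can hold other cells. In the Runx3 library it was at 2219 CPM in the monocyte gate, 1162 CPM in B-gated cells and 677.6 CPM in T-gated cells. The mature neutrophil gate held 405 of 11885 cells in the Runx3_fl library (3.09 to 3.75%) and 327 of 8167 cells in the Runx3 library (3.59 to 4.45%). Of 10 further neutrophil markers, 8 were at 10 CPM or more in this gate in the Runx3_fl library and 10 in the Runx3 library. Their summed level was 94.2 and 251.0 CPM in T-gated cells, and 11216 and 11110 CPM in the mature neutrophil gate. Ly6g, the surface marker by which mouse neutrophils are usually sorted, was at 7.42 CPM in the Runx3_fl library and 297.2 CPM in the Runx3 library, and Retnlg, which marks recently released neutrophils, at 485.2 and 5096 CPM. The cells of this gate were shallower than most, with a median of 3297 and 5316 UMIs.

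The 10 genes took 1.73% of all UMIs of the mature neutrophil gate in the Runx3_fl library and 16.1% in the Runx3 library. Of the 10, 9 were at least 2-fold higher in the Runx3 library and 0 were at least 2-fold lower, while 27.2% of the 10965 genes with at least 10 UMIs were higher and 8.82% were lower by that measure. The median log2 ratio of the 10 genes was 5.97, against 0.46 for all genes. Camp and Ngp had the widest gaps and Mmp9 the narrowest. With the median of all genes set to 0, S100a8 had a log2 ratio of 2.74 in place of 3.20 and Mmp9 of 0.26 in place of 0.73.

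**Figure D1:**
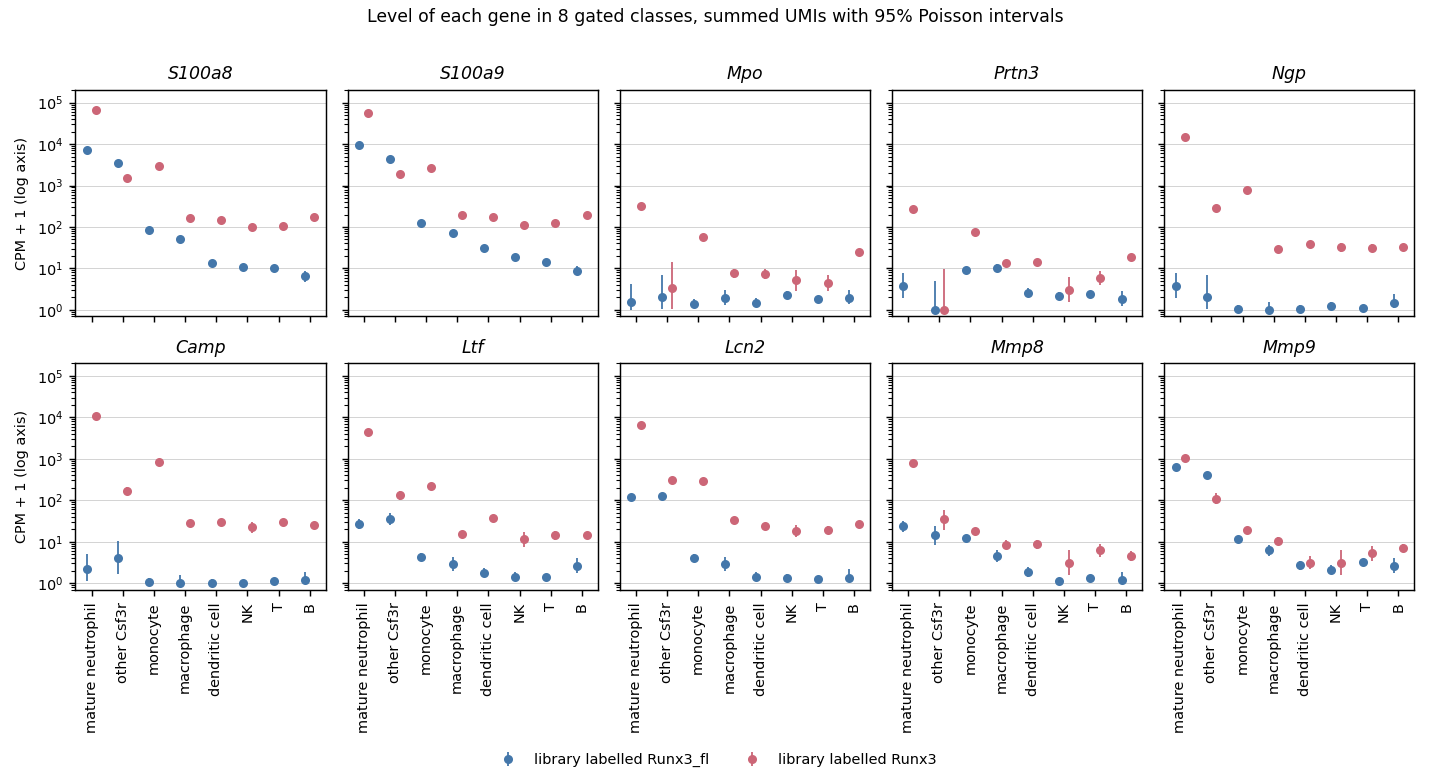
Level of each gene (y axis, CPM + 1, log axis) in 8 gated classes (x axis), with the Runx3_fl library in blue and the Runx3 library in red. Points are CPM of summed UMIs with 95% Poisson intervals. Levels were highest in the mature neutrophil gate of the Runx3 library for every gene, and Ngp and Camp were at most 3.15 CPM in every class of the Runx3_fl library.

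The calprotectin transcripts were the most abundant of the set in both libraries. S100a8 was at 7102 CPM (6977 to 7227) in the mature neutrophils of the Runx3_fl library and 65323 CPM (65037 to 65610) in those of the Runx3 library, 9.20-fold higher (9.03 to 9.37). S100a9 was at 9421 CPM (9278 to 9566) and 56293 CPM (56028 to 56560), 5.98-fold higher (5.88 to 6.07). The order of the genes was reversed in the sums of the gate, with 0.754 S100a8 UMIs per S100a9 UMI (0.736 to 0.772) in the Runx3_fl library and 1.16 (1.15 to 1.17) in the Runx3 library. This depended on which cells were summed. Without 67 Runx3 cells with 10 or more UMIs of both Ngp and Camp, S100a8 was at 16853 CPM and S100a9 at 17268 CPM. Without cells rich in Elane, Fcnb or Retnlg, described below, S100a8 stayed higher, at 17406 and 16073 CPM. Both transcripts were widespread within the gate: S100a9 was detected in 89.4% of the cells in the Runx3_fl library and 96.0% in the Runx3 library. The spread between cells was wide. Per 10000 UMIs of a cell, S100a8 had a median of 37.5 and a 90th percentile of 243.7 in the Runx3_fl library, against 76.4 and 1374 in the Runx3 library. The upper tail differed more than the middle of the distribution.

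Once every cell was thinned to 1000 UMIs, the shares of neutrophils with a calprotectin UMI were close. S100a8 was found in 77.3% of 401 cells (72.9 to 81.3) of the Runx3_fl library and 81.1% of 323 cells (76.4 to 85.2) of the Runx3 library, and the intervals overlap. T cells thinned alike had an S100a8 UMI in 0.601% of 2828 cells and 12.0% of 425 cells, which gives the share of cells with a UMI where the gene should be silent. The genes of the specific granules differed in the share of cells too. Ngp was found in 0 of 401 thinned cells, which allows up to 0.916% of cells with a UMI at that depth, and in 30.0% of 323 cells (25.1 to 35.4), while the T cells had 0.0354% and 4.47%. Unthinned, the gate of the Runx3_fl library held 5 Ngp UMIs in 3 cells. Camp was found in 0 of 401 cells and 25.1% of 323 cells, and Ltf in 3.24% and 24.1%. Mmp9 showed no such gap, with 47.1% (42.2 to 52.1) and 44.6% (39.1 to 50.2).

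The azurophil genes were close to absent in one library and present in few cells of the other. Mpo, whose enzyme makes hypochlorous acid, had 1 UMI in the 405 neutrophil-gated cells of the Runx3_fl library (0.571 CPM, 0.0145 to 3.18) and 975 UMIs in the Runx3 library (318.5 CPM, 298.8 to 339.1). Only 20 of the 327 cells held an Mpo UMI there, and 5 of them held 97.3% of the UMIs. Prtn3, the protease also known as myeloblastin, was at 2.85 CPM (5 UMIs) and 275.7 CPM (844 UMIs), in 5 and 32 cells. Chosen instead by at least 5 UMIs of Elane or Fcnb, 20 cells of the Runx3 gate held 98.7% of its Mpo UMIs and 95.9% of its Prtn3 UMIs. They also held 51.4% of its Camp UMIs and 43.6% of its Ngp UMIs. Without them Mpo was at 5.27 CPM and Prtn3 at 14.2 CPM, so these levels are not those of most cells in the gate. Elane had 0 UMIs and 425.3 CPM, at least 248-fold higher against a floor of 3 UMIs, and Ctsg had 0 UMIs and 48.7 CPM. The ratio of Mpo was 558.0-fold with an interval of 99.9 to 22061, so that its size is poorly known.

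Among the specific granule genes, Ngp and Camp had the largest ratios of the set. Ngp, a cystatin-like protein of myeloid granules, had 5 UMIs in the Runx3_fl library (2.85 CPM) and 45109 UMIs in the Runx3 library (14734 CPM, 14599 to 14871), a log2 ratio of 11.90 (11.11 to 13.96). Camp, the precursor of an antimicrobial peptide, had 2 UMIs (1.14 CPM) and 33226 UMIs (10853 CPM), a log2 ratio of 12.31 (11.36 to 16.26). Ltf, an iron-binding protein, was at 25.7 CPM (18.7 to 34.4) and 4534 CPM (4459 to 4610). Lcn2, which withholds bacterial siderophores, was at 120.4 CPM (104.7 to 137.8) and 6635 CPM (6544 to 6727), 55.1-fold higher. In the Runx3_fl library Lcn2 was therefore well detected where Ngp and Camp were not: it had 42.2 UMIs per Ngp UMI there (17.8 to 131.3) and 0.450 in the Runx3 library (0.443 to 0.458).

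Of the late granule genes, Mmp8 differed widely and Mmp9 little. Mmp8, neutrophil collagenase, was at 22.8 CPM (16.3 to 31.1) and 798.3 CPM (767.0 to 830.6), 35.0-fold higher. Mmp9, the gelatinase, was at 642.1 CPM (605.1 to 680.8) and 1065 CPM (1029 to 1102), 1.66-fold higher (1.55 to 1.78) and the only member short of 2-fold. Mmp9 was detected in 77.8% of the neutrophil-gated cells of the Runx3_fl library and 73.4% of those of the Runx3 library.

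T cells, which should not make these transcripts, give the background level within each library. In the Runx3_fl library 6 of the 10 genes (S100a8, S100a9, Ltf, Lcn2, Mmp8 and Mmp9) were at least 10-fold above T cells in the mature neutrophil gate, against 3.87% of all genes. In the Runx3 library 10 of the 10 were, against 2.24% of all genes. That background itself differed between the libraries: T cells had 9.17 CPM of S100a8 and 0.122 CPM of Ngp in the Runx3_fl library, and 105.9 and 31.0 CPM in the Runx3 library.

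Cells of different stages were then set apart. They were grouped by 3 genes outside the set, with thresholds chosen after the data were seen: at least 5 UMIs of Elane (Elane group), at least 5 UMIs of Fcnb, which encodes ficolin B of immature granules, and fewer of Elane (Fcnb group), at least 10 UMIs of Retnlg (Retnlg group), and the rest of the mature neutrophil gate. These groups were drawn from all kept cells of any gate. The Runx3 library held 18 cells in the Elane group, 25 in the Fcnb group, 115 in the Retnlg group and 224 in the rest. The Runx3_fl library held 0, 0, 34 and 382. Cells of the Elane and Fcnb groups were deep, with a median of 27741 and 28028 UMIs, against 10915 in the Retnlg group and 4105 in the rest, and a fixed number of UMIs is easier to reach in a deep cell. With the Elane- and Fcnb-rich cells left out, an alternative chosen after the data were seen, 9 of the 10 genes were still at least 2-fold higher in the neutrophil gate of the Runx3 library, and with the Retnlg-rich cells left out as well, 7 were.

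The groups differed in which granule genes they held. In the Elane group Mpo was at 3606 CPM (3443 to 3774) and Prtn3 at 3584 CPM (3422 to 3752), each found in 18 of 18 cells. These 18 cells held 79.2% of all Mpo UMIs and 72.2% of all Prtn3 UMIs of the library. The same group already held Camp at 20443 CPM and Ngp at 16734 CPM, each found in 15 of 18 cells. Ltf was at 2037 CPM but found in 10 of 18 cells, with a median of 3 and a maximum of 350 UMIs. Mmp8 and Mmp9 had 0 UMIs, which allows at most 7.18 CPM by the Poisson interval. In the Fcnb group Mpo was down to 43.9 CPM and Prtn3 to 159.6 CPM, and the specific granule genes stood at their highest, with Ngp at 36981 CPM, Camp at 29949 CPM, Ltf at 9445 CPM and Lcn2 at 13137 CPM. S100a8 reached 128876 CPM (128026 to 129730) there and S100a9 107445 CPM, and the 10 genes together took 32.6% of the UMIs of these cells. Mmp8 was still at 24.9 CPM and Mmp9 at 215.2 CPM.

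**Figure D2:**
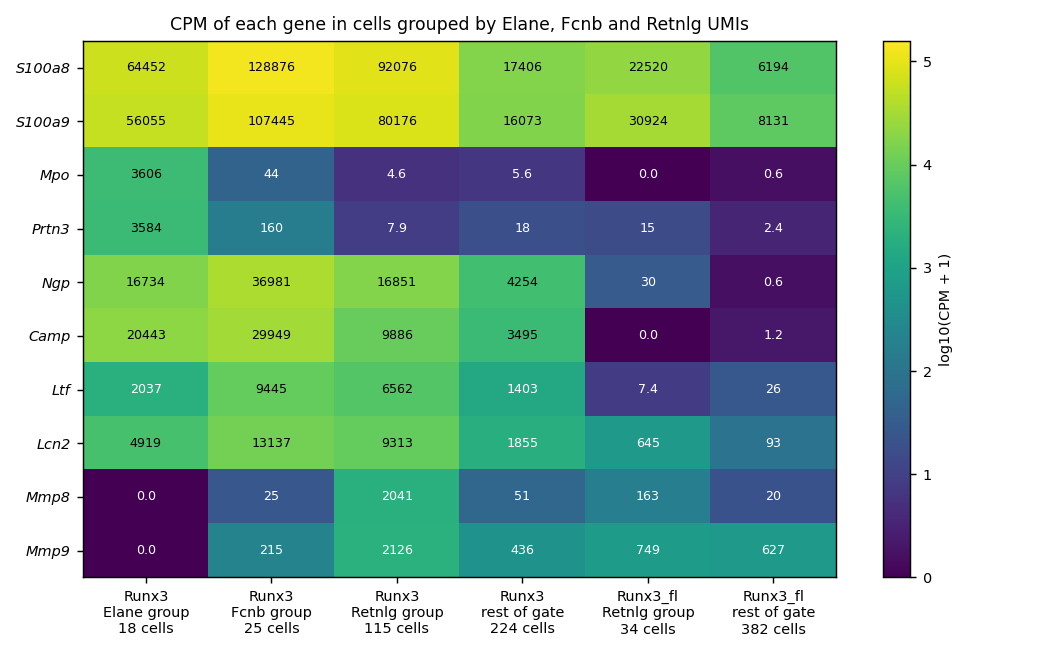
CPM of each gene (rows) in cells grouped by UMIs of Elane, Fcnb and Retnlg (columns, with library and number of cells), coloured by log10(CPM + 1). Mpo and Prtn3 stand out in the Elane group, Ngp and Camp peak in the Fcnb group, and Mmp8 and Mmp9 are highest in the Retnlg group of the library labelled Runx3; the Runx3_fl library has no cells in the first 2 groups.

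In the Retnlg group of the Runx3 library the gelatinase granule genes were highest, with Mmp8 at 2041 CPM (1970 to 2114) and Mmp9 at 2126 CPM (2053 to 2201). These 115 cells held 82.9% of the Mmp8 UMIs and 68.1% of the Mmp9 UMIs of that library. Ngp was at 16851 CPM and Camp at 9886 CPM, but in unequal shares of the cells: Ngp was found in 89 of 115, Camp in 65 and Lcn2 in 107. Mpo was at 4.59 CPM there. In the rest of the gate Ngp was at 4254 CPM with UMIs in 58 of 224 cells and as many as 1911 in a single cell, so that this mean comes from few cells. Mki67, a proliferation gene, was at 585.7 CPM in the Elane group, 784.7 CPM in the Fcnb group and 30.2 CPM in the Retnlg group. Cebpe, the C/EBP factor of specific granule formation, was at 354.1, 455.3 and 131.9 CPM in these groups and 41.5 CPM in the rest.

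**Figure D3:**
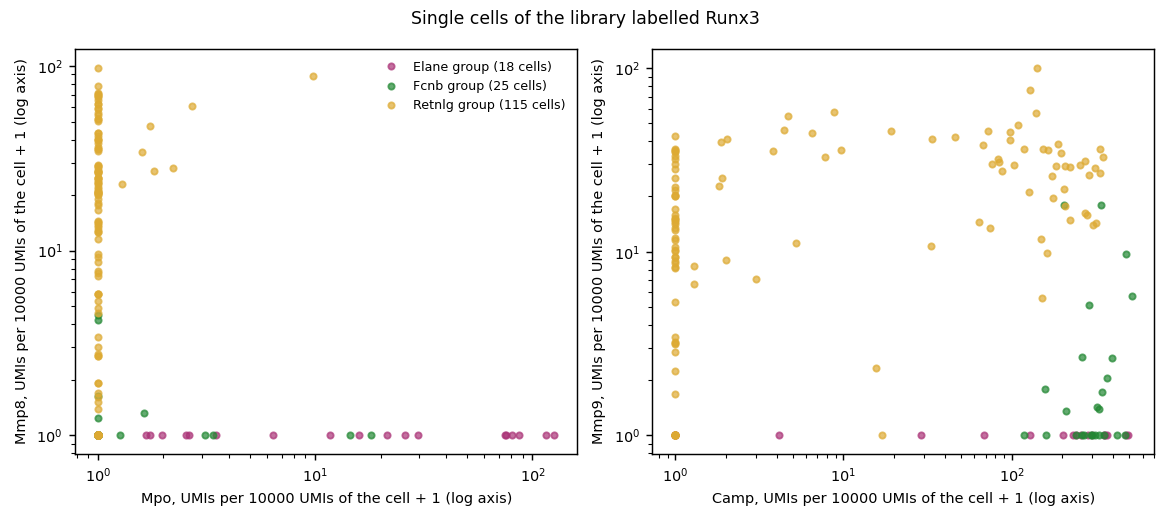
Single cells of the Elane, Fcnb and Retnlg groups in the library labelled Runx3, as UMIs per 10000 UMIs of the cell + 1 on log axes, with Mmp8 against Mpo (left) and Mmp9 against Camp (right). No cell of the 8167 held 10 or more UMIs of both Mpo and Mmp8, while Camp and Mmp9 meet in part of the Retnlg group.

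Early and late granule genes were not abundant in the same cells. No cell of either library had 10 or more UMIs of both Mpo and Mmp8. In the Runx3 library 128 cells had 10 or more UMIs of both Ngp and Camp, and these held 96.3% of its Ngp UMIs, 96.6% of its Camp UMIs and 84.3% of its S100a8 UMIs. The cells were chosen by Ngp and Camp, so that their high shares of Ngp and Camp UMIs follow in part from the choice. S100a8 was not used to choose them. Of the 128 cells, 39 also had 10 or more UMIs of both Mmp8 and Mmp9. The Runx3_fl library had 0 cells of either kind. Of the 128 cells, 67 were in the mature neutrophil gate, 37 in the monocyte gate and 20 met several gates.

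The comparison between libraries was repeated within the groups that both held. In the Retnlg group, 115 cells against 34, 8 of the 9 genes with at least 10 UMIs were at least 2-fold higher in the Runx3 library and 0 were lower, against 43.1% and 12.5% of all genes. The cells were unlike in depth, with a median of 10915 UMIs in the Runx3 library and 3543 in the Runx3_fl library, and Retnlg itself was at 12123 and 4725 CPM. S100a8 was at 22520 and 92076 CPM, S100a9 at 30924 and 80176 CPM, and Lcn2 at 645.3 and 9313 CPM. Ngp had 4 UMIs (29.7 CPM) in the Runx3_fl library and was at 16851 CPM in the Runx3 library, and Camp had 0 UMIs against 9886 CPM, at least 444-fold higher in the Runx3 library by a floor of 3 UMIs. Mmp8 was at 163.2 and 2041 CPM and Mmp9 at 749.2 and 2126 CPM, a 2.84-fold gap. In the rest of the gate, 224 cells against 382, 7 of 9 genes were at least 2-fold higher and 0 lower, against 22% and 3.8% of all genes. There S100a8 was at 6194 and 17406 CPM and S100a9 at 8131 and 16073 CPM. The median cells were close, with 13 and 12 S100a8 UMIs and 19 and 20 S100a9 UMIs, and a single cell of the Runx3 library held 7049 of its 24730 S100a8 UMIs. Mmp9 ran the other way in that group, at 627.2 CPM in the Runx3_fl library and 436.4 CPM in the Runx3 library, a log2 ratio of -0.52 (-0.67 to -0.38), short of 2-fold.

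**Figure D4:**
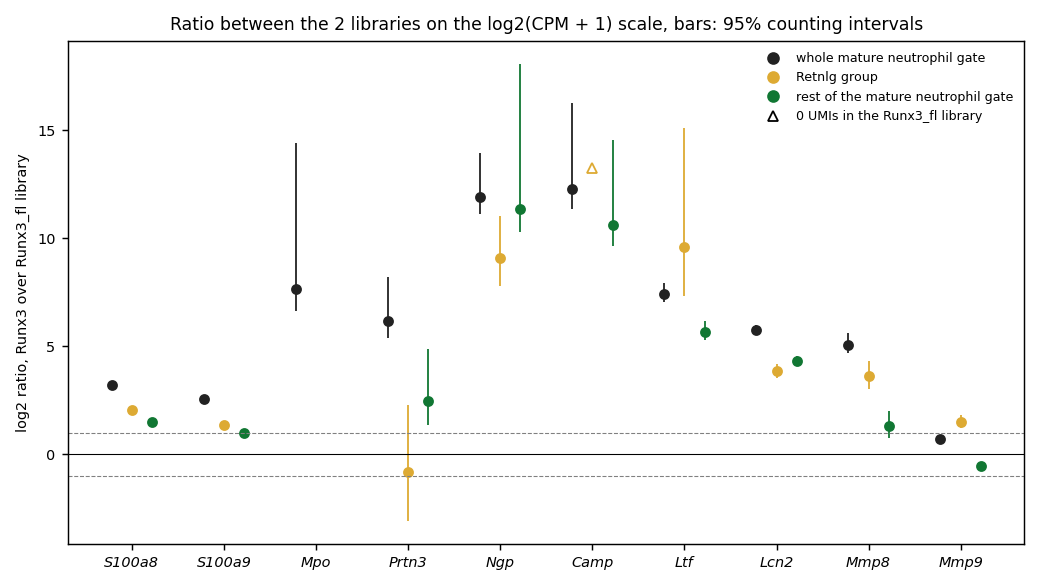
Log2 ratio of each gene between the library labelled Runx3 and the library labelled Runx3_fl (y axis, log2(CPM + 1) scale) in the whole mature neutrophil gate (black), the Retnlg group (yellow) and the rest of the gate (green), with 95% counting intervals and dashed lines at 2-fold. The intervals were computed without the added 1. Ngp, Camp and Ltf stay high in every group, S100a8 and S100a9 fall toward 2-fold in the rest of the gate, and Mmp9 lies at 0.73, 1.50 and -0.52.

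Monocyte-gated cells numbered 1444 in the Runx3_fl library and 2555 in the Runx3 library, with a median of 11052.5 and 3551 UMIs. Monocyte markers summed to 3997 and 3989 CPM in them. Macrophage markers were at 441.0 and 1072 CPM, epithelial markers at 8.80 and 106.9 CPM and red cell markers at 0.251 and 155.4 CPM. T, NK, dendritic cell and cycling markers were lower in the Runx3 library. In this gate 8 of the 10 genes were at least 2-fold higher in the Runx3 library and 0 lower, against 12.7% and 1.86% of all genes. S100a8 was at 83.6 and 2951 CPM, S100a9 at 126.1 and 2681 CPM, Ngp at 0.0628 and 768.9 CPM and Camp at 0.0628 and 818.5 CPM. The share of cells with a UMI differed in this gate. With cells thinned as above, S100a8 was found in 4.37% of 1419 monocyte-gated cells of the Runx3_fl library. In the Runx3 library it was found in 27.2% of 2061 cells. Ngp was found in 0% and 9.32% of these cells. T cells of the Runx3 library thinned alike had S100a8 in 12.0% and Ngp in 4.47%. Most UMIs of S100a8 and Ngp were nonetheless held by few cells. The 17 monocyte-gated cells of the Runx3 library with at least 5 UMIs of Elane or Fcnb held 80.2% of the S100a8 UMIs of the gate, 74.6% of its Ngp UMIs and 86.0% of its Mpo UMIs, and the Runx3_fl library had 0 such cells. Without them S100a8 was at 602.2 CPM (589.5 to 615.1), Ngp at 200.6 CPM and Prtn3 at 13.5 CPM, and 7 genes remained at least 2-fold higher. Prtn3 then had a log2 ratio of 0.66 in place of 3.02. Without the 37 monocyte-gated cells rich in Ngp and Camp instead, S100a8 was at 307.6 CPM and Ngp at 53.7 CPM, against at most 172.0 and 32.4 CPM in the lymphocytes of that library. Those cells were chosen by members of the set, so that the lower Ngp level follows from the choice. Mmp8 and Mmp9 were short of 2-fold with and without these cells, at 11.3 and 17.6 CPM for Mmp8 and 10.6 and 18.0 CPM for Mmp9.

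Within the Runx3_fl library, which held no Elane- or Fcnb-rich cell, 6 of the 10 genes (S100a8, S100a9, Prtn3, Lcn2, Mmp8 and Mmp9) had intervals in monocytes wholly above T, B and NK cells. The share of all genes with such intervals was not computed, so this count has no background beside it. Prtn3 was at 8.17 CPM (6.83 to 9.70) in monocytes and 9.43 CPM (7.20 to 12.1) in macrophages, against 1.39 CPM in T cells, 0.798 CPM in B cells and 2.85 CPM in the mature neutrophils. Its UMIs were spread over 94 of 1444 monocytes and 48 of 486 macrophages, with at most 5 in a cell. Mmp8 was at 11.3 CPM (9.72 to 13.1) in monocytes and 0.341 CPM in T cells, in 100 monocytes with at most 10 UMIs, and the monocytes held 52.9% of all Mmp8 UMIs of that library. Mmp9 was at 10.6 CPM in monocytes and 2.32 CPM in T cells.

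Macrophage-gated cells, 486 and 648, had 7 of the 10 genes at least 2-fold higher in the Runx3 library and 0 lower, against 16.2% and 2.25% of all genes. The lymphocytes differed in the same direction: 9 of the 10 genes were at least 2-fold higher in T cells, 10 of 10 in B cells and 7 of the 9 with enough UMIs in NK cells, against 14.9%, 21.4% and 9.75% of all genes in these classes. In the Runx3 library S100a8 was at 164.5 CPM in macrophages, 105.9 in T cells, 172.0 in B cells and 99.9 in NK cells, and Ngp at 29.1, 31.0, 32.4 and 31.0 CPM. No gene had an interval in macrophages of that library wholly above all 3 lymphocyte classes, but that count rests on 1 cell. The B gate held a cell with 217 Mpo, 137 Prtn3, 232 Elane and 360 S100a8 UMIs, and without it the B cell level was 137.4 CPM for S100a8, 165.1 CPM for S100a9, 3.31 CPM for Mpo (from 24.4) and 4.67 CPM for Prtn3 (from 18.0). S100a8 at 164.5 CPM (155.1 to 174.2), S100a9 at 195.0 CPM (184.8 to 205.6) and Prtn3 at 12.4 CPM (9.94 to 15.3) in macrophages then lay wholly above the lymphocytes, and the other 7 genes did not. In the Runx3_fl library 5 genes had intervals above the lymphocytes, with S100a8 at 49.4 CPM (against at most 10.0 in lymphocytes), S100a9, Prtn3, Mmp8 and Mmp9. For these interval counts in macrophages, too, the share of all genes was not computed. After the B cell level of each library was subtracted, 2 genes were higher and 3 lower in macrophages of the Runx3 library, and the log2 ratio of S100a8 was -5.49. Without the 1 cell in the B gate, an alternative chosen after the data were seen, 3 were higher and 1 lower, and S100a8 was at -0.68. With the T cell level subtracted, 2 were higher and 0 lower. The count of 7 therefore depends on how the lymphocyte level is treated.

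The ratio of the calprotectin genes differed between lymphocytes and neutrophils of the Runx3 library. S100a8 per S100a9 UMI was 0.835 (0.732 to 0.951) in T cells, 0.884 (0.723 to 1.08) in NK cells and 0.843 (0.779 to 0.913) in macrophages, against 1.16 in mature neutrophils and 1.10 in monocytes. The monocyte value rests on 17 cells with at least 5 UMIs of Elane or Fcnb. Without these cells the monocyte gate held 8543 S100a8 UMIs and 9397 S100a9 UMIs. Ngp per S100a9 UMI was 0.262 in neutrophils, 0.244 (0.199 to 0.298) in T cells and 0.274 (0.202 to 0.368) in NK cells. It was lower in B cells (0.167, 0.148 to 0.188), macrophages (0.149, 0.128 to 0.173) and other Csf3r cells (0.152, 0.124 to 0.185). The B cell value rests in part on the 1 Elane-rich cell, which held 304 of 2000 S100a9 UMIs and 7 of 334 Ngp UMIs of that gate.

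Cells with Csf3r but without Cxcr2, Ly6c2, Csf1r or any other gate, 264 and 154, ran against the other classes for 3 genes. S100a8 was at 3407 CPM in the Runx3_fl library and 1557 CPM in the Runx3 library, S100a9 at 4354 and 1857 CPM, and Mmp9 at 398.4 and 108.8 CPM, each more than 2-fold lower. Ngp was at 1.05 and 282.9 CPM, Camp at 3.15 and 166.9 CPM and Lcn2 at 123.0 and 307.1 CPM, each more than 2-fold higher. Of the 8 genes with at least 10 UMIs, 5 were higher and 3 lower, against 24.5% and 6.95% of all genes. The cells of the Runx3 library were shallower here, with a median of 2015 UMIs against 2935.

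The order of the classes is given for S100a8. In the Runx3 library mature neutrophils (65323 CPM) were followed by monocytes, other Csf3r cells, B cells, macrophages, dendritic cells, T cells and NK cells. The place of monocytes (2951 CPM) above other Csf3r cells (1557 CPM) rests on 17 cells with at least 5 UMIs of Elane or Fcnb. Without these cells monocytes were at 602.2 CPM, below other Csf3r cells. The place of B cells rests on 1 cell, without which they were at 137.4 CPM, below macrophages and dendritic cells. B cells (172.0 CPM) and macrophages (164.5 CPM) do not differ beyond their intervals, nor do macrophages and dendritic cells (147.4 CPM), nor T cells (105.9 CPM) and NK cells (99.9 CPM). In the Runx3_fl library the order was mature neutrophils, other Csf3r cells (3407 CPM), monocytes (83.6 CPM), macrophages (49.4 CPM), dendritic cells (12.3 CPM), NK cells (10.0 CPM), T cells (9.17 CPM) and B cells (5.43 CPM), and neighbours from dendritic cells to T cells do not differ beyond their intervals.

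Across 16 points, 8 classes in each of 2 libraries, the genes most like S100a9 by Pearson correlation were Wfdc21 (r = 0.98), Rab44 (r = 0.97) and Lrg1 (r = 0.97), among 5902 genes. Elane (r = 0.91), Ncam1 (r = 0.90) and Abca7 (r = 0.89) were most like Ngp, and Elane (r = 0.99), Ms4a3 (r = 0.96) and Fcnb (r = 0.95) most like Mpo. The points share library and depth, and the values are a description.

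Related gene lists were set beside the 10 genes in the mature neutrophil gate, where the background was again 27.2% of genes higher and 8.82% lower by 2-fold. Of the other specific granule genes, 12 of 13 tested were higher and 0 lower, with a median log2 ratio of 4.46 (4.43 with genes absent from the Runx3_fl library at their bound). Cd177, which presents proteinase 3 on the cell surface, was at 6.85 and 661.8 CPM, and Chil3, a chitinase-like protein, at 54.8 and 2262 CPM. Fcnb and Lbp had 0 UMIs in the Runx3_fl library and were at 171.5 and 53.2 CPM in the Runx3 library. Of the other azurophil genes, 5 of 7 were higher and 1 lower: Prss57 had 0 UMIs and 17.6 CPM, while Srgn, the proteoglycan core that binds granule proteases, was at 8897 and 3439 CPM.

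The lists of later or general neutrophil functions differed less. Of gelatinase granule and secretory vesicle genes 4 of 12 were higher and 0 lower, among them Padi4, which citrullinates histones, at 9.13 and 131.3 CPM, Pglyrp1 at 308.2 and 1423 CPM, Mmp25 at 43.9 and 131.3 CPM and Adam8 at 79.9 and 222.1 CPM. None of the 6 NADPH oxidase genes passed 2-fold: Cybb, the catalytic subunit, was at 728.9 and 1195 CPM, Cyba at 536.5 and 890.1 CPM, Ncf1 at 361.3 and 628.1 CPM and Rac2 at 293.9 and 585.7 CPM. Mature neutrophil effector genes went the opposite way, with 0 of 12 higher and 9 lower and a median log2 ratio of -1.81. The gap was narrower in the rest of the gate: Il1b was at 7741 and 3937 CPM there and Cxcl2 at 25637 and 12965 CPM, both short of 2-fold, where the whole gate had log2 ratios of -1.84 and -1.90. In the whole gate Tnf was at 1817 and 314.5 CPM, Ptgs2, the inducible cyclooxygenase, at 3370 and 804.8 CPM, and the chemokines Ccl3 and Ccl4 at 4924 and 1300 CPM and at 4193 and 1093 CPM.

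Of 10 protease inhibitor genes 5 were higher and 1 lower. Serpinb1a, which inhibits elastase, cathepsin G and proteinase 3, was at 4.57 and 369.8 CPM, Wfdc21 at 121.0 and 2688 CPM, and the stefins Stfa2 and Stfa3 at 10.3 and 82.6 CPM and at 4.57 and 85.6 CPM; these stefins are near-identical copies between which reads may be split. Of 10 granulopoiesis factors 4 were higher and 0 lower: Cebpe at 10.8 and 169.5 CPM, Cebpa at 6.28 and 20.9 CPM, Klf5 at 14.3 and 41.8 CPM and Gfi1 at 6.28 and 14.0 CPM. Other S100 genes had 3 of 7 higher and 1 lower. S100a6 was at 1140 and 3310 CPM, S100a1 at 6.28 and 23.2 CPM and S100a13 at 45.7 and 100.6 CPM. The lower gene, S100a16, was at 6.85 and 2.61 CPM from 12 and 8 UMIs. Its log2 ratio had an interval of -2.89 to 0.021, so that its direction is not fixed by these counts. Receptors and partners of these proteins had 2 of 8 higher and 0 lower. Itgam, with Itgb2 the integrin Mac-1, was at 244.3 and 637.3 CPM, Itgb2 at 175.2 and 347.5 CPM and Lrp1 at 20.5 and 52.3 CPM, while Tlr4, a receptor of calprotectin, was at 146.1 and 91.1 CPM, short of 2-fold. Of 10 neutrophil maturity genes 3 were higher, Ly6g, Retnlg and Top2a (13.1 and 165.0 CPM), and 0 lower; Mki67 was at 110.2 and 220.2 CPM.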

How the data were processed

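Single-cell RNA-seq was read for 2 libraries of mouse colon immune cells, 1 per group. The deposited values are raw UMI counts per gene and cell, made by the authors with Cell Ranger 7.1.0 per the file headers from the 3′ version 3 kit; the submitters' processing notes list mm10 and Seurat 4. The 10 genes and all lists were chosen with earlier results of these data known.

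Cells with 200 to 6000 genes and at most 15% mitochondrial UMIs were kept, as in the study, where the upper limit also served against doublets, and no doublet caller was used in the main values. Cells were gated at 1 UMI per marker, and cells meeting several gates were left out. UMIs were summed per class and divided by the class total (CPM). Intervals are exact: Poisson for levels, conditional binomial for ratios and Clopper-Pearson for shares, all at 95%. Log2 ratios and the counts at 2-fold and 10-fold are on the CPM + 1 scale, so log2 ratios of low genes are understated. Folds, and the intervals of folds and of log2 ratios, were computed without the added 1. For low genes a log2 ratio can therefore lie outside its interval. A gene was counted as higher or lower at 2-fold with at least 10 UMIs over both libraries, and as above T cells at 10-fold. All intervals cover counting error only. Class totals ranged from 413523 to 41006231 UMIs over the classes named. Ratio and interval scripts were tested on simulated data.

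Named genes were the 10 genes, up to 4 per list with the largest absolute log2 ratio in mature neutrophils among genes with at least 10 UMIs, the gate and marker genes, and the 3 genes most like S100a9, Ngp and Mpo among genes reaching 50 CPM. Il1b, Cxcl2, the B-gated cell and the stage groups were chosen after their values were seen. The mast cell or basophil gate held 3 and 12 cells, under the minimum of 20, and was not compared. Alternatives were another gate level, cell filter, doublet removal by Scrublet (scanpy 1.11.5), per-cell means, thinning, background subtraction, centring, another pseudocount and other monocyte and overlap rules; 3 more, which left out Elane-, Fcnb- or Retnlg-rich cells or 1 B-gated cell, were added after the data were seen. Python 3.11.15 was used.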

Additional observations from a re-analysis of the deposited data

Results flagged for a closer look

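Ratios in opposite directions between classes were found for 3 genes. S100a8 had a log2 ratio of -1.13 in the other Csf3r cells and 5.13 in monocyte-gated cells. S100a9 had -1.23 in the other Csf3r cells and 4.47 in B cells, and Mmp9 had -1.86 in the other Csf3r cells and 1.47 in B cells, which should not make these transcripts. Mmp9 also had -0.52 in the rest of the mature neutrophil gate and 1.50 in the Retnlg group. With 1 library per group these differences were not tested.

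Signal was also present in cells that no comparison used. In barcodes outside the cell filter the 10 genes together were at 149.5 CPM in the Runx3_fl library and 14161 CPM in the Runx3 library, against 415.4 and 11700 CPM in kept cells. In cells that met several gates they took 0.0315% and 0.987% of the UMIs.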

How the results depend on the processing

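No paired analysis was possible because each group holds 1 library. Of 112 counts of genes under the alternatives, 107 stayed within 1.5 times the main count. The other 5 were in macrophage-gated cells: in place of 7 higher and 0 lower, 2 genes were higher with the T cell level subtracted, 2 were higher and 3 lower with the B cell level subtracted, and 3 were higher and 1 lower with the B cell level subtracted and its Elane-rich cell left out, a setting chosen after seeing the data. These settings remove the lymphocyte level by construction. Of 427 log2 ratios of single genes, 233 stayed within the main interval and 187 moved. The sign changed in 7 whose main ratio was at least 2-fold, all in macrophages: Ltf at -0.72 with the T cell level subtracted, S100a8 at -5.49, S100a9 at -5.23 and Ltf at -0.0058 with the B cell level subtracted, and S100a8 at -0.68, S100a9 at -1.09 and Ltf at -0.044 with that level subtracted without the Elane-rich cell. The size of the S100a8 and S100a9 values thus rests on 1 cell. The sign also changed in 8 ratios short of 2-fold in the main values: in macrophages Prtn3 (-0.10, -3.27 and -0.14 under these 3 settings), Mmp8 (-0.37, T cell level) and Mmp9 (-0.18 with the B cell level, with and without that cell), in thinned monocytes Mmp9 (-0.22), and in mature neutrophils Mmp9 (-0.52). In mature neutrophils S100a8 ranged from 1.49 to 3.54, Ngp from 10.16 to 12.78 and Mmp9 from -0.52 to 0.98. The lowest values of S100a8 and Mmp9 were those without Elane-, Fcnb- or Retnlg-rich cells, a setting chosen after seeing the data. Mpo fell to 2.00 without Elane- or Fcnb-rich cells. Scrublet left out 1130 and 534 cells. Genes with under 3 UMIs in the Runx3_fl library have ratios whose size this depth does not fix.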

Other observations

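The mast cell or basophil gate of the Runx3 library, 12 cells, held 106 Mpo UMIs (910.1 CPM) and 4 Prtn3 UMIs (34.3 CPM). As many as 64 of the Mpo UMIs were in a single cell, and 3 cells held any.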
